A study of Arabidopsis thaliana with 24 samples.

Results

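The N-MYC downregulated-like (NDL) family of Arabidopsis thaliana has 3 members in the deposited data, NDL1 (AT5G56750), NDL2 (AT5G11790) and NDL3 (AT2G19620), among 18430 genes with counts. The members were taken by gene identifier from the RNA-seq table and from the assigned gene of each bZIP68-bound region in the longer of the 2 deposited peak lists. Of the 5734 nuclear regions of that list, 1 was assigned to the family, to NDL2. The family was chosen by the RNA level of NDL2, which is far lower in bzip68 than in wild-type (wt) seedlings. The genotype difference of the members is therefore given as a description with no test, and the tests concern the response to H2O2.

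NDL proteins are plant relatives of the animal N-MYC downstream-regulated proteins and have an alpha/beta hydrolase fold. In Arabidopsis they bind the beta-gamma dimer of the heterotrimeric G protein and are known for a part in auxin transport and in root and shoot branching. bZIP68 is a G-group bZIP transcription factor, a class that binds G-box elements with the letters CACGTG and related sequences around an ACGT core.

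RNA was from whole seedlings, 14 days old, grown at 125 µmol light on plates with sucrose, in 4 groups of 3 libraries each. These were bzip68 mutants sprayed with 5 mM H2O2, bzip68 mutants sprayed with water (mock), wt plants sprayed with 5 mM H2O2 and wt plants sprayed with water, and the spray of all 4 groups held 0.01% Triton X-100. Chromatin immunoprecipitation (ChIP) used an antibody to FLAG on whole seedlings, 8 days old, carrying bZIP68-FLAG, with GFP-FLAG seedlings as the control, 3 samples each, so the peaks come from younger plants than the RNA and from unsprayed ones as far as the labels say. The sources used here name 1 mutant, with no allele, and do not give the promoter of the FLAG constructs or the time from spraying to harvest. No source says whether the libraries of a group are from separate cultures; the p-values compare differences with the spread among these libraries alone, and that spread may be technical.

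The 3 genes share most of their structure. In RefSeq TAIR10.1, NDL1 lies on chromosome 5 from 22957629 to 22960916 on the plus strand, NDL2 on chromosome 5 from 3799408 to 3803216 on the plus strand, and NDL3 on chromosome 2 from 8485991 to 8488963 on the minus strand. Their proteins have 346, 344 and 347 residues in that order, with coding sequences of 1041, 1035 and 1044 bp. NDL1 and NDL2 proteins are 72.8% identical, NDL1 and NDL3 74.1% and NDL2 and NDL3 65.4%. The first 5 coding exons have the same lengths in all 3 genes, 60, 100, 98, 89 and 61 bp. NDL2 has 11 coding exons and the others 10: coding exon 6 of NDL1 has 165 bp where NDL2 has exons of 87 and 78 bp, and coding exon 9 of NDL3 has 192 bp where NDL2 has exons of 56 and 136 bp. The longest run of identical bases between coding sequences is 23 bp, for NDL1 and NDL3, and 12 bp for either of them and NDL2. In the annotation NDL2 overlaps AT5G01915, a miRNA gene on the same strand, over 349 bp. NDL3 overlaps AT2G07245, a non-coding gene on the other strand, over 331 bp and AT2G19610, also on the other strand, over 96 bp. None of these 3 is in the count table, and no source states whether counting used strand, so some reads counted for NDL2 or NDL3 could belong to them. In the authors' peak list NDL2 ends at 3802792, inside AT5G01915 (3802714 to 3803062), so the overlap is shorter in that gene model.

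The sequences shown are those that bear on the bZIP68 peak of NDL2: the central 300 bases of the peak, chr5:3798735-3799034 on the plus strand, and the 250 bases before the annotated start of each gene, chr5:3799158-3799407 (plus) for NDL2, chr5:22957379-22957628 (plus) for NDL1 and chr2:8488964-8489213 (minus) for NDL3, all read from the RefSeq TAIR10.1 genome. Capitals mark the letters ACGT, the core of the G-box, which read the same on both strands and are part of every CACGTG. The NDL2 promoter begins inside the end of the peak.
NDL2 peak: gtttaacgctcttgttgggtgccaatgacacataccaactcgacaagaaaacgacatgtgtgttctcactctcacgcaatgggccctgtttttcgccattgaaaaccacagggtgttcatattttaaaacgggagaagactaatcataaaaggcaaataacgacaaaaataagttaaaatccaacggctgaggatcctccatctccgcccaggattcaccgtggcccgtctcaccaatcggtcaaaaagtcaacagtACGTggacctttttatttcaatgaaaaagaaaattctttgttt
NDL2 promoter: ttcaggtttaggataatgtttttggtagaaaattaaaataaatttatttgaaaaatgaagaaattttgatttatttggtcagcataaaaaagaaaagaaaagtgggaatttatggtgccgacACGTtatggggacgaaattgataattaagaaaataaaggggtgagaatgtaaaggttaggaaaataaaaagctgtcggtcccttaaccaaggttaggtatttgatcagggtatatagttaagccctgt
NDL1 promoter: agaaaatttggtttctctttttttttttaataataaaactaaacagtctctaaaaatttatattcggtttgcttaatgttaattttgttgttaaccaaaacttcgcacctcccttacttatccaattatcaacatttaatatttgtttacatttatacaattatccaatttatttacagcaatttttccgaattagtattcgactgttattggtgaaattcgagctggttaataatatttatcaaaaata
NDL3 promoter: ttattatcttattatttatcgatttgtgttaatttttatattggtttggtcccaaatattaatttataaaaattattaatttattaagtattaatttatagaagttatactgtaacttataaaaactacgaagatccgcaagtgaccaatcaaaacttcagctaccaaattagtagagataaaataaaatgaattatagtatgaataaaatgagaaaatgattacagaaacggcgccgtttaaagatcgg

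The whole 632-bp peak held CACGTG nowhere and ACGT once, in AGTACGTGGA at position 3798992, which is 416 bp before the NDL2 start and 107 bp from the peak centre. Of windows of 632 bp centred on the 5734 nuclear peaks of the list, 41.3% held CACGTG and 91.2% ACGT. Of the 632 bp before 27443 protein-coding genes, 10.9% held CACGTG and 71.5% ACGT. In the 250 bases before the start, NDL2 had 1 ACGT, in GACACGTTAT at 128 bp before the start, and NDL1 and NDL3 had none. That window held ACGT in 44.1% of protein-coding genes and CACGTG in 6.5%. Over 1000 bases, ACGT stood 2 times before NDL2, 2 times before NDL1 and not at all before NDL3, CACGTG before none of the 3, and 85.0% and 14.8% of protein-coding genes had ACGT and CACGTG there. A match is a description of the letters and not a site.

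The peak assigned to NDL2 runs from 3798570 to 3799201 on chromosome 5 and ends 207 bp before the RefSeq start of the gene. The authors annotated it as promoter, and it overlaps no annotated gene. Its score, the authors' log-scaled p-value of the peak, which is higher for a smaller p, is 114.71, above that of 34.4% of the peaks in the list. The authors' own distance to the start of transcription is -349 bp, measured from 3799550, where their gene model begins. The list of peaks with an adjusted p under 1e-30, which the authors also deposited, does not hold it. NDL1 had no peak assigned to it. The nearest, with a score of 190.75, ends 1434 bp before the NDL1 start and was assigned by the authors to HAG2 (AT5G56740), a histone acetyltransferase gene that is its neighbour. The authors' list also names NDL1 as a flanking gene of that peak, at a distance of -1682 bp. The peak held no ACGT. NDL3 had no peak assigned to it either. Its nearest peak lay 12919 bp past its start and was assigned to TET2 (AT2G19580), a tetraspanin gene. Among the 18205 genes tested for expression, 22.7% had a peak, so 1 of 3 members with a peak is no more than a description.

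**Figure D1:**
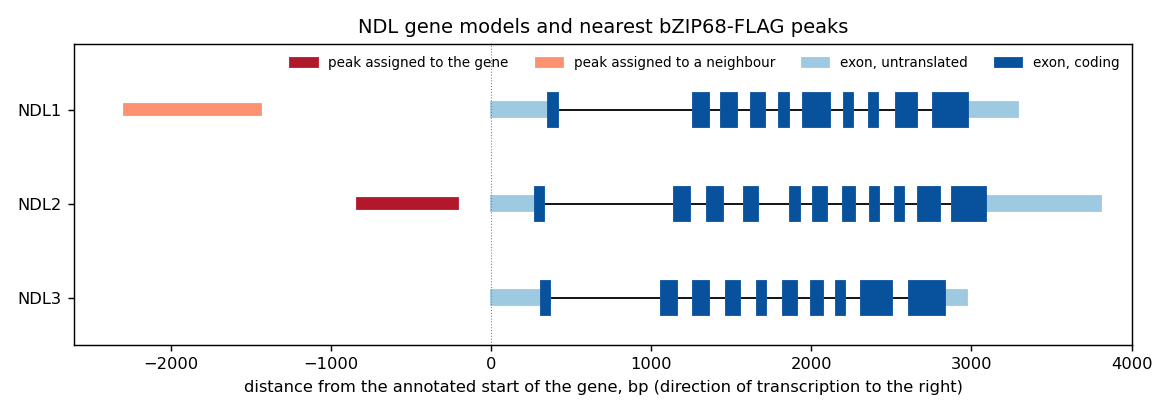
Gene models of NDL1, NDL2 and NDL3 drawn by distance in bp from the annotated start, with transcription to the right, thick boxes for coding and thin boxes for untranslated exon parts. The dark red bar is the peak assigned to NDL2, ending 207 bp before its start, and the light red bar is the peak 1434 bp before NDL1 that was assigned to HAG2; the nearest peak of NDL3 is out of range.

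Depth was similar in the 12 libraries, with 8997073 to 10262992 counts each, and 18205 genes passed the filter on low counts, all 3 members among them. BZIP68, the gene the mutant is named for, had 2, 0 and 2 counts in H2O2 bzip68, 2, 1 and 1 in mock bzip68, 87, 93 and 70 in H2O2 wt and 74, 82 and 102 in mock wt. Leaf markers (4 of 4) and root markers (5 of 5) were present in all groups. In a principal component analysis the first 2 components held 32.9% and 19% of the variance. On the second, replicate 2 of mock bzip68 (-42.1) and replicate 2 of H2O2 wt (-34.9) had the lowest values and lay away from their groups. H2O2 bzip68 replicate 2 (-6.06) also lay away from replicates 1 and 3 of its group (29.7 and 19.3). Chloroplast genes took 0.0121% of the counts of H2O2 wt replicate 2, against 1.05% to 1.54% in the other 11 libraries. The 2 libraries that stood apart are, in what follows, mock bzip68 replicate 2 and H2O2 wt replicate 2. Results that rest on these 2 libraries are given with and without them. H2O2 bzip68 replicate 2 was left out only in the fits that drop 1 library at a time. Levels are in CPM, counts scaled to the size of the library, and log2 fold changes are from 1 fit over the 12 libraries.

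NDL2 was nearly absent from bzip68 seedlings under both sprays. In mock bzip68 it had 37, 15 and 24 counts, or 3.80, 1.76 and 2.60 CPM, against 1512, 1349 and 1516 counts, or 161, 150.5 and 150.3 CPM, in mock wt. In H2O2 bzip68 it had 17, 19 and 11 counts, or 1.85, 2.07 and 1.18 CPM, against 951, 1182 and 985 counts, or 93.6, 111 and 99.96 CPM, in H2O2 wt. All 6 bzip68 libraries lay below all 6 wt libraries, with no overlap at either spray. The group means were 2.72 ± 1.02 CPM in mock bzip68 and 154 ± 6.36 CPM in mock wt, and 1.70 ± 0.465 CPM in H2O2 bzip68 and 102 ± 8.90 CPM in H2O2 wt (SD, n = 3 each). By summed counts, scaled to the size of the libraries, NDL2 was 55.8-fold lower in mock bzip68 (95% counting interval 44.5 to 70.9). It was 60.0-fold lower in H2O2 bzip68 (45.0 to 81.8). Both intervals cover counting error only. The fitted log2 fold changes, bzip68 over wt, were -5.80 ± 0.21 in mock and -5.89 ± 0.22 in H2O2 plants (SE, n = 3 per group). Groups that do not overlap were found in 14.2% of all genes tested in the mock comparison (7.37% lower in bzip68) and 16.7% in the H2O2 comparison (8.18% lower), and since NDL2 was picked through these comparisons nothing is read from that. The counts left in bzip68 were above 0 in every library. Without the 2 libraries that stood apart the log2 fold changes were -5.58 in mock and -5.82 in H2O2 plants. Summed root markers were higher in mock bzip68 (88.6 to 94.5 CPM) than in mock wt (67.7 to 81.8 CPM), and their part in the difference was not tested. In bulk RNA from seedlings, fewer cells of a type and less RNA per cell cannot be told apart.

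NDL1 and NDL3 did not share this pattern. NDL1 had 12.6, 10.7 and 11.9 CPM in mock bzip68 and 13.0, 10.9 and 9.72 CPM in mock wt. In H2O2 plants it had 14.8, 12.7 and 13.2 CPM in bzip68 and 14.5, 16.4 and 12.4 CPM in wt. The libraries of the genotypes overlapped under both sprays, and the log2 fold changes were 0.07 ± 0.16 in mock and -0.09 ± 0.15 in H2O2 plants (SE). NDL3 had 8.31, 6.44 and 6.29 CPM in mock bzip68 and 9.61, 9.04 and 7.44 CPM in mock wt. In H2O2 plants it had 8.29, 5.11 and 7.70 CPM in bzip68 and 5.61, 7.43 and 7.51 CPM in wt. Its genotypes overlapped too, with log2 fold changes of -0.31 ± 0.21 in mock and 0.04 ± 0.21 in H2O2 plants (SE). The 95% intervals of these folds ran from -0.27 to 0.41 (mock) and -0.42 to 0.24 (H2O2) for NDL1 and from -0.75 to 0.14 and -0.41 to 0.49 for NDL3 on the log2 scale.

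**Figure D2:**
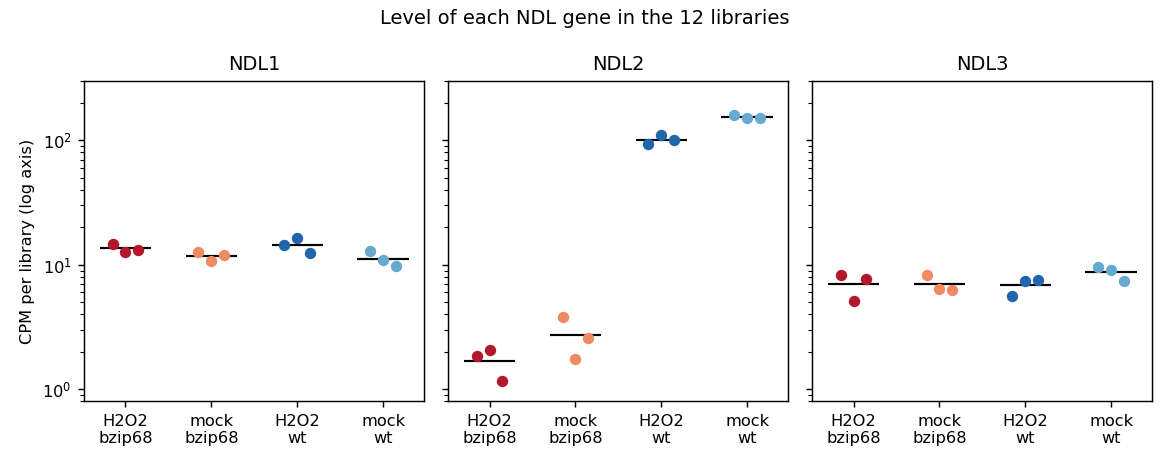
CPM of NDL1, NDL2 and NDL3 in each of the 12 libraries on a log axis, 1 point per library, with a line at the mean of the 3 libraries of a group. NDL2 lies between 1.18 and 3.80 CPM in the 6 bzip68 libraries and between 93.6 and 161 CPM in the 6 wt libraries, while NDL1 and NDL3 overlap between genotypes.

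Per length of exon, NDL2 was the highest of the family in wt and the lowest in bzip68. Lengths are of RefSeq exons, 2727 bp for NDL2. The authors' NDL2 model is shorter, from 3799550 to 3802792, so levels per kb and the shares built on them depend on the gene model. Levels in CPM per kb of exon were 0.623 for NDL2, 6.75 for NDL1 and 3.78 for NDL3 in H2O2 bzip68, and 0.996, 5.84 and 3.77 in mock bzip68, in the same order of genes. In H2O2 wt they were 37.2 for NDL2, 7.17 for NDL1 and 3.68 for NDL3, and in mock wt 56.5, 5.59 and 4.67. Of the 18056 genes tested with an exon length, 0.5% were lower per length than NDL2 in H2O2 bzip68, 2.9% in mock bzip68, 86.0% in H2O2 wt and 91.0% in mock wt. NDL1 stood at 42.8%, 38.7%, 44.7% and 37.4% in that order of groups and NDL3 at 26.2%, 26.4%, 25.9% and 32.1%.

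The summed level of the family followed NDL2. It was 11.2 ± 1.34 CPM per kb in H2O2 bzip68, 10.6 ± 1.396 in mock bzip68, 48.1 ± 4.32 in H2O2 wt and 66.8 ± 3.61 in mock wt (SD, n = 3 each). NDL2 made up 5.67% ± 1.92 of that sum in H2O2 bzip68, 9.20% ± 2.31 in mock bzip68, 77.5% ± 0.679 in H2O2 wt and 84.7% ± 1.36 in mock wt. The share ran from 3.88% to 11.5% over the bzip68 libraries and from 77.1% to 86.2% over the wt libraries. These sums rest on the same counts that led to NDL2 and are a description.

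**Figure D3:**
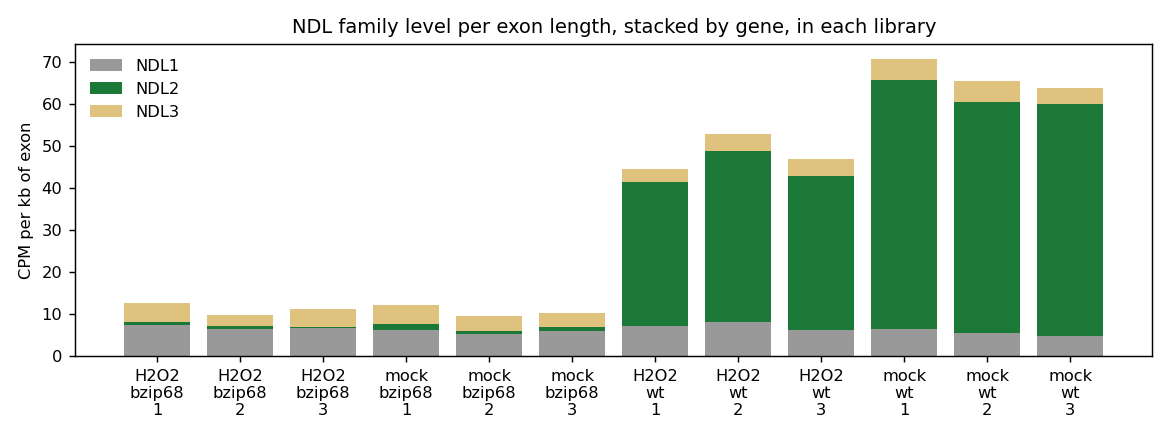
Level of the NDL family in CPM per kb of exon in each library, stacked by gene. Bars of the 6 bzip68 libraries reach 9.40 to 12.5 and are mostly NDL1 and NDL3, and bars of the 6 wt libraries reach 44.5 to 70.8 and are mostly NDL2.

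Among the 12 libraries, the genes whose log2 CPM followed that of NDL2 most closely were those also low in bzip68. NDL2 was picked for that difference, so the ranking largely restates the choice. BZIP68 had 0 to 2 counts in each bzip68 library, so its log2 values there are at the floor. The root mean square difference from NDL2, after each gene was centred on its own mean, was 0.73 log2 units for BZIP68, 1.47 for ENT1, an equilibrative nucleoside transporter gene, 1.74 for AT3G05060 and 1.94 for AT5G24200. The median over all genes was 2.93, and NDL1 and NDL3 stood near it at 2.93 and 2.84. AT5G24200 averaged only 0.326 CPM in H2O2 bzip68 and 0.598 in mock bzip68, so its log2 values there are near the floor too. In wt it averaged 3.39 CPM after H2O2 and 3.06 after mock. ENT1 averaged 3.68 CPM in H2O2 bzip68, 3.96 in mock bzip68, 31.4 in H2O2 wt and 31.4 in mock wt. Its annotation overlaps that of the neighbouring gene AT1G70340, so its counts are uncertain. For NDL1 the 4 most similar genes by Pearson r over the 12 libraries were AT3G60290 (r = 0.93), the galactokinase gene GALK (0.92), AT3G22260 (0.91) and AT1G21730 (0.91). For NDL3 they were AT5G03830 (r = 0.87), AT5G43140 (0.85), the phloem protein gene PP2-B14 (0.83) and AT2G15695 (0.83). These are descriptions: the named genes are the closest of 18205 over the same 12 libraries in 4 groups.

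The genes beside NDL2 did not share its difference between genotypes. The 8 nearest measured protein-coding genes, 4 on each side, had log2 fold changes, bzip68 over wt, between -0.35 and 0.14 in mock and between -0.25 and 0.63 in H2O2 plants. KEA6 (AT5G11800), a potassium efflux antiporter gene on the other strand whose annotated end lies 98 bp past that of NDL2, averaged 10.3 ± 1.01 CPM in mock bzip68 and 13.1 ± 1.10 CPM in mock wt (SD, n = 3 each). Its log2 fold change was -0.35 ± 0.16 in mock plants, where its libraries did not overlap between genotypes, and -0.23 ± 0.16 in H2O2 plants, where they did (SE). On the other side AT5G11770, whose annotated start lies within the next peak, had 0.14 ± 0.17 and -0.23 ± 0.17. Around all 3 members, groups did not overlap in 5 of 24 neighbours in mock and in 4 of 24 in H2O2 plants, beside 14.2% and 16.7% of all genes.

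**Figure D4:**
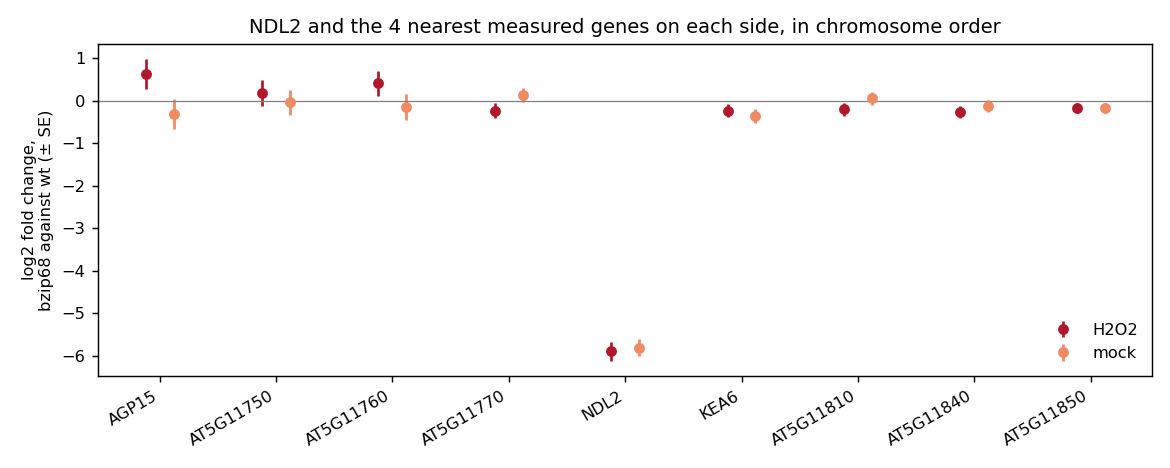
Log2 fold change, bzip68 over wt, of NDL2 and its 4 nearest measured genes on each side in chromosome order, with H2O2 plants left of mock plants and bars of 1 SE. NDL2 lies at -5.89 and -5.80, and its 8 neighbours lie between -0.35 and 0.63.

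NDL2 fell after H2O2 in wt seedlings, and NDL1 and NDL3 did not pass the test in either genotype. In H2O2 wt its levels were 93.6, 111 and 99.96 CPM, against 161, 150.5 and 150.3 CPM in mock wt, so that every H2O2 library lay below every mock library; as a background, the libraries of 28.9% of all genes did not overlap, counting both directions. The log2 fold change, H2O2 over mock, was -0.60 ± 0.15 (SE, n = 3 per group; 95% interval -0.93 to -0.27), 1.52-fold lower, and the Benjamini-Hochberg adjusted p over all genes was 0.0198 by the quasi-likelihood test of edgeR. This made 1 of 3 members called, beside 9.74% of all genes tested, and 4.72% called lower. Of all genes, 6.7% had a lower log2 fold change, and the median gene was at 0.00 to within the 2 decimals given. Without the 2 libraries that stood apart the value was -0.67, with an adjusted p of 0.00396. The call was lost without H2O2 wt replicate 1 (-0.55, adjusted p 0.0839), H2O2 wt replicate 3 (-0.59, 0.0757), mock wt replicate 1 (-0.57, 0.0804) or mock wt replicate 3 (-0.62, 0.0522), each from the same edgeR test on 11 libraries.

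In bzip68 seedlings the remaining NDL2 transcripts averaged 1.70 ± 0.465 CPM after H2O2 and 2.72 ± 1.02 CPM after mock (SD, n = 3 each). The libraries overlapped, since mock bzip68 replicate 2 had 1.76 CPM against 1.18 to 2.07 CPM in H2O2 bzip68. The log2 fold change was -0.69 ± 0.28 (95% interval -1.28 to -0.11) with 0.165 as adjusted p in edgeR, and it did not pass the test, with 0 of 3 members called beside 7.39% of all genes. Without mock bzip68 replicate 2, which stood apart, it was -0.91 with an adjusted p of 0.044, and without both libraries that stood apart -0.91 with 0.0485 (edgeR). Without mock bzip68 replicate 1 it was -0.37 with an adjusted p of 0.474, and without H2O2 bzip68 replicate 3 it was -0.48 with 0.503 (edgeR). The difference of the responses, bzip68 minus wt, was -0.09 ± 0.30 log2 units (95% interval -0.74 to 0.56), with 0.959 as adjusted p in edgeR. It was 0.23 without mock bzip68 replicate 1 and 0.12 without H2O2 bzip68 replicate 3 (adjusted p 0.771 and 0.982, edgeR). Leaving out any other library gave a negative value, the lowest -0.31 without mock bzip68 replicate 2 (adjusted p 0.995, edgeR). Without both libraries that stood apart it was -0.24 with an adjusted p of 0.994 (edgeR). The interval holds no difference as well as a response in bzip68 larger or smaller than that in wt. The summed level of root markers moved with this comparison, at 62.9 to 72.8 CPM in H2O2 bzip68 and 88.6 to 94.5 CPM in mock bzip68. The markers moved unevenly, with log2 fold changes of -0.93 for CASP1, -0.47 for ESB1, -0.405 for MYB36, -0.16 for SHR and -0.06 for PIN2. Of these 5, only CASP1 was called lower. In wt the sum was 71.3 to 85.6 CPM after H2O2 and 67.7 to 81.8 CPM after mock. Summed leaf markers overlapped, at 28190 to 34150 CPM in H2O2 bzip68 and 32250 to 40400 CPM in mock bzip68. Their part in the NDL2 values was not tested.

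NDL1 and NDL3 were called in neither genotype. NDL1 averaged 14.4 ± 1.99 CPM in H2O2 wt and 11.2 ± 1.67 CPM in mock wt (SD, n = 3 each), with a log2 fold change of 0.36 ± 0.16 (95% interval 0.03 to 0.69) and 0.183 as adjusted p in edgeR. The wt libraries overlapped. In bzip68 it averaged 13.6 ± 1.12 CPM after H2O2 and 11.7 ± 0.996 CPM after mock, with 0.21 ± 0.16 log2 units and an adjusted p of 0.539 (edgeR), and the libraries did not overlap, as in 22% of all genes. NDL3 averaged 6.85 ± 1.07 CPM in H2O2 wt and 8.69 ± 1.13 CPM in mock wt, a log2 fold change of -0.34 ± 0.21 (95% interval -0.78 to 0.10) with an adjusted p of 0.378 (edgeR). In bzip68 it averaged 7.03 ± 1.69 CPM after H2O2 and 7.01 ± 1.13 CPM after mock, 0.00 ± 0.21 log2 units, with an adjusted p of 0.998 (edgeR). The responses of NDL1 differed by -0.15 ± 0.22 log2 units between bzip68 and wt and those of NDL3 by 0.34 ± 0.30 (SE, adjusted p 0.886 and 0.815, edgeR). Over all genes no difference of responses was called by edgeR with all 12 libraries, with 1178 at an unadjusted p under 0.05, and 24 were called by DESeq2. The same edgeR test called 8 with the replicate number as a block within genotype and 26 without mock wt replicate 3.

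From low to high, NDL2 stood at H2O2 bzip68, mock bzip68, H2O2 wt and mock wt, and the first 2 of these overlapped while each later step did not. For NDL1 the order was mock wt, mock bzip68, H2O2 bzip68 and H2O2 wt, and for NDL3 it was H2O2 wt, mock bzip68, H2O2 bzip68 and mock wt. The libraries of neighbours in these last 2 orders overlapped, apart from mock bzip68 and H2O2 bzip68 for NDL1.

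The G protein list held 12 genes, of which only the beta and gamma subunits form the dimer that NDL proteins bind. The others were alpha subunits and genes that act with the complex, among them RGS1, GCR1, WNK8 and ARD1. All 12 were measured, from 10 counts per library upward, and none of the 12 had a bZIP68 peak. In wt seedlings 2 of 12 rose after H2O2 and none fell, beside 9.74% of all genes called and 5.02% called higher. ARD1 (AT4G14716), an acireductone dioxygenase known as an effector of the beta subunit, averaged 52.2 ± 2.35 CPM in H2O2 wt and 34.4 ± 2.23 CPM in mock wt, 0.60 ± 0.13 log2 units higher with an adjusted p of 0.00666 (edgeR). WNK8 (AT5G41990), a kinase of the regulator RGS1, averaged 36.3 ± 1.75 CPM in H2O2 wt and 25.7 ± 4.86 CPM in mock wt, 0.50 ± 0.13 log2 units higher with an adjusted p of 0.0197 (edgeR). ARD1 kept its call without any 1 library, and WNK8 lost it without H2O2 wt replicate 2 or 3 or mock wt replicate 1 or 3 (0.41 to 0.51 log2 units, adjusted p 0.0554 to 0.109). Without the 2 libraries that stood apart ARD1 was at 0.63 log2 units with an adjusted p of 0.00896 and WNK8 at 0.46 with 0.0519 (edgeR). The median log2 fold change of the list was 0.24, beside 0.00 for all genes tested. AGB1 (AT4G34460), the beta subunit itself, averaged 63.8 ± 7.55 CPM in H2O2 wt and 53.8 ± 5.96 CPM in mock wt and did not pass the test (0.25 ± 0.15 log2 units, adjusted p 0.373, edgeR).

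In bzip68 seedlings 1 of the 12 rose, again ARD1, with 56.9 ± 6.76 CPM after H2O2 and 38.1 ± 5.39 CPM after mock, 0.58 ± 0.13 log2 units and an adjusted p of 0.0109 (edgeR), beside 7.39% of all genes called and 4.11% called higher. The call of ARD1 was lost without H2O2 bzip68 replicate 1 (0.50, adjusted p 0.0548) or mock bzip68 replicate 3 (0.48, adjusted p 0.0722), and with only the 6 bzip68 libraries in the fit (0.58, adjusted p 0.0673, edgeR). XLG2 (AT4G34390), an extra-large alpha subunit, averaged 24.9 ± 6.78 CPM in H2O2 bzip68 and 15.9 ± 3.52 CPM in mock bzip68, with 0.65 ± 0.20 log2 units and an adjusted p of 0.0707 (edgeR). With the replicate number as a block within genotype, which pairs libraries by number, XLG2 was called too. It had 0.64 ± 0.16 log2 units and an adjusted p of 0.0162 (edgeR), which made 2 of 12. Without the 2 libraries that stood apart ARD1 was at 0.57 with an adjusted p of 0.0265 and XLG2 at 0.49 with 0.224 (edgeR). AGG1 (AT3G63420), a gamma subunit, was called higher without mock bzip68 replicate 1 (0.67, adjusted p 0.0216, edgeR). The median of the list was 0.14. Between genotypes, given as a description, GCR1 was higher and XLG2 lower in mock bzip68 than in mock wt with no overlap of libraries, and RGS1 and WNK8 were lower in H2O2 bzip68 than in H2O2 wt. Of all genes, 6.87% were higher and 7.37% lower in bzip68 with no overlap in mock plants, and 8.49% were higher and 8.18% lower in H2O2 plants.

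Of 17 auxin transport genes, 15 were in the count table, and 6 of the 17 had a bZIP68 peak, among them PIN3, PIN4, PIN7, LAX3 and PID, beside 22.7% of all genes tested. In wt seedlings 1 of 15 was called lower and none higher by edgeR with all 12 libraries, beside 9.74% of all genes, and other settings called other members. PIN3 (AT1G70940), an auxin efflux carrier of tropic growth, averaged 47.0 ± 6.27 CPM in H2O2 wt and 66.0 ± 1.23 CPM in mock wt, -0.49 ± 0.13 log2 units with an adjusted p of 0.0233 (edgeR). Its call was lost without H2O2 wt replicate 2 (-0.42, adjusted p 0.108) or 3, or without any 1 of the 3 mock wt libraries (-0.50 to -0.46 log2 units, adjusted p 0.0548 to 0.0970). Without the 2 libraries that stood apart it was -0.42 with an adjusted p of 0.0751 (edgeR), and in its place AUX1, an influx carrier (0.44, adjusted p 0.0481), and PIN7, an efflux carrier (0.42, adjusted p 0.0333), were called higher. PIN7 was also called higher by DESeq2, with only the 6 wt libraries, with the block within genotype, and without mock bzip68 replicate 1 or 2 (0.38 to 0.39 log2 units, adjusted p 0.0258 to 0.0388). PIN4, an efflux carrier too, was called higher with the 6 libraries, with that block, and without mock bzip68 replicate 2 (0.39 to 0.40 log2 units, adjusted p 0.0286 to 0.0352). ABCB4 was called lower without mock wt replicate 3 (-1.39, adjusted p 0.0154, edgeR). Unadjusted p-values under 0.05 were found for 10 of the 15, in both directions, beside 21.9% of all genes, and the median of the list was -0.16. In bzip68 none of the 15 was called in either direction by edgeR, beside 7.39% of all genes called and 3.28% called lower. DESeq2 called none of them either. An unadjusted p under 0.05 (edgeR) was found for 3 of the 15, beside 19.5% of all genes. LAX2, an influx carrier, was called lower without mock bzip68 replicate 1 (-0.69, adjusted p 0.0316, edgeR). The smallest p with all libraries was that of PIN5, a carrier of the endoplasmic reticulum, with 1.41 ± 0.329 CPM after H2O2 and 2.72 ± 1.48 CPM after mock (adjusted p 0.218, edgeR), and the median of the list was -0.08. PIN2 stands on the list of root markers too, whose summed level was 62.9 to 72.8 CPM in H2O2 bzip68 and 88.6 to 94.5 CPM in mock bzip68. PIN2 itself averaged 10.8 ± 2.65 CPM in H2O2 bzip68 and 11.3 ± 4.38 CPM in mock bzip68. Its log2 fold change there was -0.06 ± 0.24, with an adjusted p of 0.940 (edgeR). The part of root tissue in the values of either list was not tested. The difference of responses was called for no gene of either list by edgeR with all 12 libraries. Between genotypes, as a description, PIN4 was higher and PIN3 and D6PK were lower in mock bzip68 than in mock wt with no overlap, and PIN5 was among 2 that were higher in H2O2 bzip68 than in H2O2 wt. These are 3 of 15 in mock and 2 of 15 in H2O2 plants, beside 14.2% and 16.7% of all genes.

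**Figure D5:**
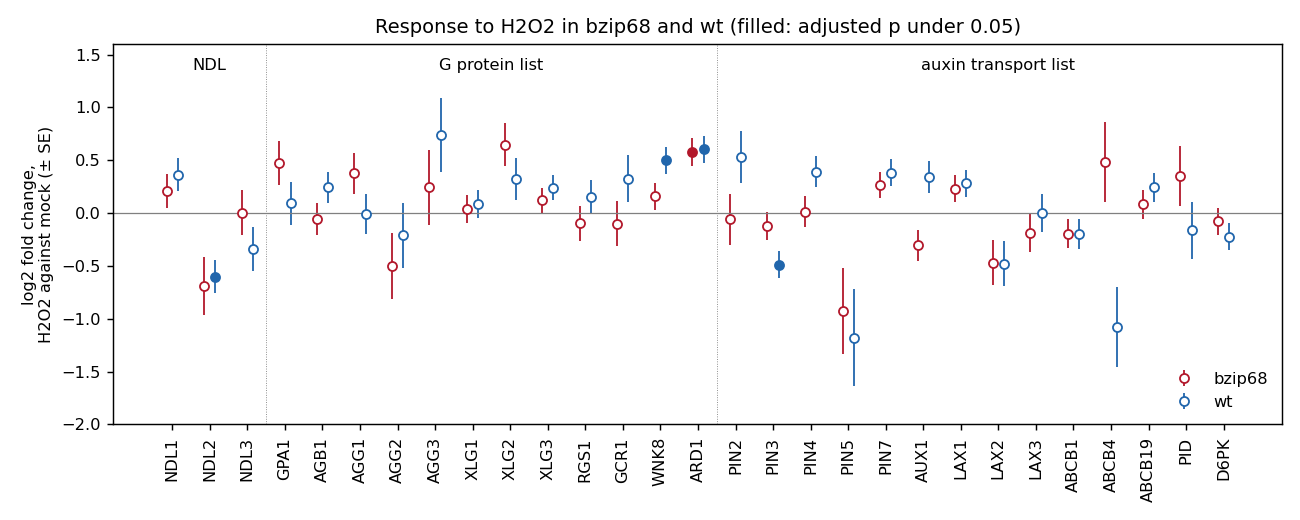
Log2 fold change, H2O2 over mock, in bzip68 (red, left) and wt (blue, right) for the NDL genes, the 12 G protein genes and measured auxin transport genes, with bars of 1 SE and filled points where the adjusted p was under 0.05. NDL2 lies at -0.69 in bzip68 and -0.60 in wt, filled in wt, and ARD1 is filled in both genotypes.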

How the data were processed

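The authors deposited whole-number counts for 18430 genes in a single table. The submitters' processing notes name RSEM 2.1.30 and TopHat2 2.1.0 for RNA, ChIPseeker and MACS 1.4.3 for ChIP, and TAIR10 for both, without their roles. Strand and the counting step are not given. Of 18 value columns, 12 matched a sample label, and 6 did not and were not used, so the low light groups are not analysed here. Peaks were those the authors deposited with a log-scaled p-value as score and their distance to a gene start. The peaks had p under 1e-05 with GFP-FLAG ChIP as the input, per the file headers. Whether replicates were pooled is not stated. The shorter list was limited to adjusted p under 1e-30 and to peaks near gene starts, per the file headers.

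The members, gene lists and alternatives were chosen with earlier results of these data known. Counts were fitted with edgeR 4.0.16 in R 4.3.3 (TMM scaling, filterByExpr by group, robust quasi-likelihood fit) over the 12 mock and H2O2 libraries, 1 mean per group and 8 residual degrees of freedom. p-values were adjusted by Benjamini-Hochberg over 18205 genes and called under 0.05. The fit was tested on simulated counts. Intervals are 95%. Library totals were 8997073 to 10262992 counts. Replicates differed by 6.06 to 28.3 in chi-square per degree of freedom, more than counting error alone gives, so none was the same library counted again. That does not tell whether replicates share RNA or a culture. CPM uses TMM-scaled totals, and CPM per kb divides by the length of all RefSeq exons joined. Replicate numbers are in the labels, with no word on what they share. Deviations of same-numbered H2O2 and mock libraries correlated at 0.37, 0.49 and 0.18 in bzip68, as paired libraries could. No label states a pairing, and libraries of different numbers were not compared. In wt those of same-numbered libraries correlated at -0.15, -0.069 and -0.096. Between bzip68 and wt they correlated at -0.095, 0.14 and 0.17 in mock and at 0.2, 0.16 and -0.25 in H2O2 plants. The main fit held no replicate term, so its p-values would ignore a pairing in bzip68 if there was one. Pairing entered only through the replicate block, an alternative. With the block within genotype 1762 genes were called in bzip68, against 1346 in the main fit. Calls rose in wt too, to 2187 against 1773, though same-numbered wt libraries correlated negatively. The named genes were the members, BZIP68, up to 4 called genes of each list and response (or that with the smallest p), the 4 nearest measured protein-coding genes on each side, and the 4 genes most like each member. Values of AGB1 and XLG2, list genes called only under an alternative, and genes listed without overlap, were added after they were seen. The values of 1 listed auxin transport gene are not reported here, though the counts and medians of the list hold it. Sequences and gene models are from RefSeq TAIR10.1; 5343 of 5412 nuclear genes with a peak were found there, and each overlapped the authors' position. Protein identity came from global alignment (Biopython 1.88, BLOSUM62). Alternatives were DESeq2 1.42.0, RLE scaling, no filter, 6 libraries only, the replicate block, leaving out libraries, the shorter peak list and assignment by position.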

Additional observations from a re-analysis of the deposited data

How the results depend on the processing

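The genotype difference of NDL2 stayed between -6.13 and -5.58 log2 units in mock and between -6.06 and -5.69 in H2O2 plants over all alternatives run. Its response in wt was -0.67 to -0.55 with 1 library left out, and -0.67 to -0.60 with adjusted p 0.000209 to 0.0197 (edgeR or DESeq2) under the other alternatives. In bzip68 it was -0.91 to -0.37 with 1 library left out and -0.91 without the 2 libraries that stood apart. Genes called numbered 1126 to 2289 in wt and 719 to 1753 in bzip68 with 1 library left out, and 855 in bzip68 with only the 6 libraries of the comparison. With 1 library left out, called G protein genes numbered 1 to 2 in wt and 0 to 2 in bzip68, and called auxin transport genes 0 to 3 in wt and 0 to 1 in bzip68. DESeq2 called 2 G protein genes in bzip68 and 2 auxin transport genes in wt. The replicate block gave NDL2 -0.69 in bzip68 when shared by all groups and -0.67 within genotype. The block called 2 G protein genes in bzip68 in either form, against 1 without it. Within genotype it called 3 auxin transport genes in wt, where same-numbered libraries correlated negatively. The block changed no call of a member. PIN3 and WNK8 were not called in wt without the 2 libraries that stood apart (adjusted p 0.0751 and 0.0519, edgeR), and PIN7 and AUX1 were called higher (0.0333 and 0.0481). The shorter peak list held 0 peaks of the family. Causes of these changes were not tested. NDL2 in bzip68 rests on 11 to 37 counts per library, which limits its response there, and 3 libraries a group limit the responses of NDL1 and NDL3.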
